A study of Mus musculus with 18 samples.

Results

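The basal myoepithelial cells of the adult FVB/NJ mouse mammary gland were examined in 3 single-cell RNA libraries, A10, P7 and D12. They were chosen by their transcripts, cell by cell. A cell was kept when it showed 500 or more genes and less than 20% mitochondrial UMIs, a UMI being 1 tagged RNA molecule. It was a member when its Krt5 and Krt14 UMIs together outnumbered those of Krt8 and Krt18, when Acta2, Cxcl14 and Il17b together had 2 or more UMIs, and when Ptprc, Mki67 and Top2a were at 0. Of 19944 kept cells, 6480 (32.5%) were members. A10 contributed 3195 of 11048 cells (28.9%, Wilson 95% interval 28.1 to 29.8), P7 contributed 1168 of 3307 (35.3%, 33.7 to 37.0) and D12 contributed 2117 of 5589 (37.9%, 36.6 to 39.2). These intervals cover counting error only, and the sort before capture can set such shares. The series as a whole holds 133710 kept cells in 18 libraries.

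The adult mice were FVB/NJ virgins of 10 weeks, and the libraries were made from mammary epithelium of pooled animals that was not staged for the estrous cycle. According to the study's methods, blood and endothelial cells were first removed by sorting (Lin-) and epithelial cells were then gated on CD24 and CD29, so the capture was limited to cells passing those gates. The same rule was applied to the other FVB/NJ libraries with 2 samples a stage, namely pregnant mice at 12.5 days (H and G) and at 18.5 days (F4 and B4) and lactating mice 10 days after birth (F11 and D6). Single libraries of adult virgin C57BL/6 and SWISS mice, also of 10 weeks, and of FVB/NJ mice after involution gave levels only. The labels place the involution library 3 weeks after birth, while the paper counts that time from weaning. The paper calls the libraries of a stage biological replicates and the labels name no animals, so p-values measure the spread between libraries of 2 or 3 a group. The labels list no drug, transgene or Cre allele for these groups.

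Basal cells form the outer layer of the bilayered mammary duct and lie on the basement membrane. Most are myoepithelial: they carry a smooth muscle type of contractile apparatus, and in lactation they contract when oxytocin binds its receptor, which ejects milk. They also make laminins and collagens of the basement membrane and secrete signals that reach the luminal cells inside them, and the basal layer has long been studied for progenitor activity in transplantation.

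Many actomyosin genes are regulated in smooth muscle by serum response factor, which binds the CArG box. Promoter windows of 300 bases, 250 before and 50 after the start of the gene, were taken from RefSeq on GRCm38.p6 for the 16 of 19 contractile list genes that matched. Windows of 4 genes are shown, Acta2 because it orders the cells of the class later on, and Myl9, Cnn1 and Tpm2 as other list genes that were higher where Acta2 was high, picked after their values were seen. Capitals mark CArG boxes in which the 6-base core holds at most 1 base other than A or T, searched on both strands, a search that was added after the one with no free base. The Acta2 window lies on the minus strand at chr19:34255324-34255623, Myl9 on the plus strand at chr2:156775214-156775513, Cnn1 on the plus strand at chr9:22099003-22099302 and Tpm2 on the minus strand at chr4:43523505-43523804, each covering sequence upstream of the gene and the first bases of its transcript.
Acta2: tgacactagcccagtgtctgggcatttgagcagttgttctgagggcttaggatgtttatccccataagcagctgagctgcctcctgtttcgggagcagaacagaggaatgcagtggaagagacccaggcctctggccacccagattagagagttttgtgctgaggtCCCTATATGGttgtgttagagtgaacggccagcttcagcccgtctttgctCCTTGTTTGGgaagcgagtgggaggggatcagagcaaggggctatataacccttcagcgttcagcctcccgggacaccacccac
Myl9: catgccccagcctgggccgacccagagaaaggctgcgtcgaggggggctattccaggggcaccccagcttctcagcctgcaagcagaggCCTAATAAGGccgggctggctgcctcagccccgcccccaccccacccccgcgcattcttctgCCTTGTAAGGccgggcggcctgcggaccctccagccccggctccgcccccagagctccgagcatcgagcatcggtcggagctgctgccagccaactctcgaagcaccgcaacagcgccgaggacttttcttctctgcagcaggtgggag
Cnn1: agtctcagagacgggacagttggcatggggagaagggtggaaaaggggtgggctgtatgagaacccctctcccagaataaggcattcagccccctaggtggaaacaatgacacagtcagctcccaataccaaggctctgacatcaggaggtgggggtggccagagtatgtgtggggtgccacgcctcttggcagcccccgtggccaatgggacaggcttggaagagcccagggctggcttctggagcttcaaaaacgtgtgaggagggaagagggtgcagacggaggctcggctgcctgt
Tpm2: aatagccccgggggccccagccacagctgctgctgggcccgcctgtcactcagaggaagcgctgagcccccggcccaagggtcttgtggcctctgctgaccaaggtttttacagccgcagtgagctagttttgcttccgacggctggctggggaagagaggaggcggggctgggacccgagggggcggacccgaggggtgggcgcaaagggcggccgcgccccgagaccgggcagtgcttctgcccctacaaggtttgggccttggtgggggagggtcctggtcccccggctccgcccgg
The Acta2 boxes began 84 and 34 bases before the start site, both with 1 free base. Myl9 held a strict box 161 bases before the start and 1 with a free base 99 bases before it, while the Cnn1 and Tpm2 windows held neither. In all, 1 of the 16 windows had a strict box (6.25%, against 1.81% of 27025 genes with a window) and 4 had a box with at most 1 free base (25% against 11.3%), namely Acta2, Myl9, Synm and Pdlim3. The same search found a box with at most 1 free base in 22.2% of 9 windows of basal keratin and adhesion genes, 17.6% of 17 windows of secreted signals and 8.33% of 12 windows of basement membrane genes, and each of these shares rests on few windows. A match is a description of the letters and not a measured binding site.

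The libraries differed in depth and in the level of dissociation response genes. They held 69643560 UMIs in A10, 9920346 in P7 and 34121281 in D12, and members had a median of 3739, 1943 and 4438 UMIs against 6205, 3072 and 6062.5 in the other cells. P7 stood apart with a median mitochondrial share of 0.471% in members (3.89% in A10 and 3.63% in D12) and with 12 dissociation response genes such as Fos and Junb summing to 33777 CPM (a gene's UMIs in every 1000000 UMIs of those cells) in members, against 8981 in A10 and 10949 in D12. D12 stood apart in Acta2 outside the class. After thinning each cell to 1500 UMIs, Acta2 was seen in 62.7% of its cells with more luminal than basal keratin, against 20.4% in A10 and 8.48% in P7, and free RNA, doublets and expression were not told apart. Cell barcodes had 14 bases in P7 and 16 in A10 and D12, so P7 could share none, and A10 and D12 shared 90, 8 of them members in both. The part of these differences in the results was not tested.

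The rule itself fixed the following values, which are given as description. Acta2, smooth muscle actin, stood at 8222 CPM in members of A10, 18625 in P7 and 8782 in D12, against 838, 668 and 1321 in the other cells. Krt14, a basal keratin, stood at 2124, 10082 and 2394 CPM against 109, 155 and 293. The chemokine gene Cxcl14 stood at 2134, 4873 and 3483 CPM, and the cytokine gene Il17b at 1075, 494 and 336. A UMI of Acta2 was present in 99.8% of members in A10, 100% in P7 and 99.9% in D12, and Krt14 in 97.8, 99.5 and 99.8%, whereas Il17b reached 85.5, 52.7 and 53.3%. Luminal keratin RNA was common too, since only 21.8, 16.0 and 2.83% of members lacked any Krt8 or Krt18 UMI.

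The contractile threshold was rarely decisive, as 2, 0 and 1 members in A10, P7 and D12 sat at exactly 2 UMIs and 4, 0 and 2 cells fell just outside at 1. The keratin balance was closer. Members with 1 more basal than luminal keratin UMI numbered 251, 23 and 113 and held Acta2 at 5434, 15078 and 7744 CPM. The 304, 55 and 61 cells with equal keratins and enough contractile UMIs, just outside, held 5447, 12789 and 7584 CPM, so cells with nearly the same Acta2 level lie on both sides of this limit. Cycling cells with basal keratins (317, 7 and 117) were left out by the rule and count among the other cells.

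Genes that the rule did not name followed the myoepithelial identity. Trp63, the p63 transcription factor of basal epithelia, stood at 70.9 CPM in members of A10, 74.0 in P7 and 100.1 in D12, against 13.7, 3.43 and 12.9 CPM in other cells. Thinned to 1500 UMIs, 9.91, 9.67 and 12.9% of members had a Trp63 UMI, against 0.951, 0.112 and 1.53% of luminal keratin cells (unthinned 24.7, 12.2 and 33.3% against 4.54, 0.595 and 5.30%). Since the same cells were chosen by their transcripts, folds against the other cells carry no test here. Over 8279 genes at 10 CPM or more, 530 were at least 2-fold higher in members in each of the 3 libraries (6.4%) and 448 at least 2-fold lower (5.41%), after adding 5 CPM to each value. The median log2 difference of all these genes was 0.03.

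Contractile genes were higher almost throughout the list. Of 18 list genes besides Acta2, 17 were higher in each library, all but Ppp1r12b, a myosin phosphatase subunit at 11.4, 13.5 and 21.0 CPM in members. Tagln, the actin-binding protein transgelin, stood at 3556, 5389 and 4302 CPM in members against 275, 202 and 495 in other cells, a mean log2 difference of 3.82 ± 0.81 (SD, n = 3 libraries). The smooth muscle myosin heavy chain Myh11 stood at 749.7, 609 and 561 CPM against 67.6, 29.5 and 76.9, and the myosin light chain kinase Mylk, which switches contraction on, at 828, 512 and 805 CPM against 72.4, 24.6 and 103. The summed levels of these genes were higher in members in every library, but single cells overlapped. Shares of thinned cells follow in the order A10, P7 and D12. A Tagln UMI was seen in 94.9, 98.0 and 95.7% of members, against 11.3, 5.80 and 23.2% of luminal keratin cells. For Myh11 the shares were 61.3, 55.5 and 52.4% of members, against 4.95, 1.95 and 7.02% of luminal keratin cells. Calponin, Cnn1, was unequal among libraries, at 1065, 3553 and 1437 CPM in members, with P7 the highest. Nexn and Palld, which organise actin filaments, were also higher, at 173, 127 and 183 CPM against 19.0, 5.22 and 19.2 for Nexn.

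Signalling towards contraction was represented by fewer genes, since 3 of 12 list genes that passed the filter were higher. Oxtr, the oxytocin receptor, stood at 206, 219 and 278 CPM in members against 17.8, 11.9 and 41.5 CPM in other cells (log2 3.18 ± 0.56, n = 3). The others were Prkg1, a cGMP-dependent kinase that relaxes smooth muscle, at 21.4, 26.6 and 15.2 CPM, and Kcnmb1, a subunit of the BK potassium channel, at 19.5, 16.7 and 29.0 CPM. Srf, Rhoa and the Rock kinases, used by many cell types, were among the 9 that did not reach 2-fold in each library. Myocd and Cacna1c were below the filter.

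**Figure D1:**
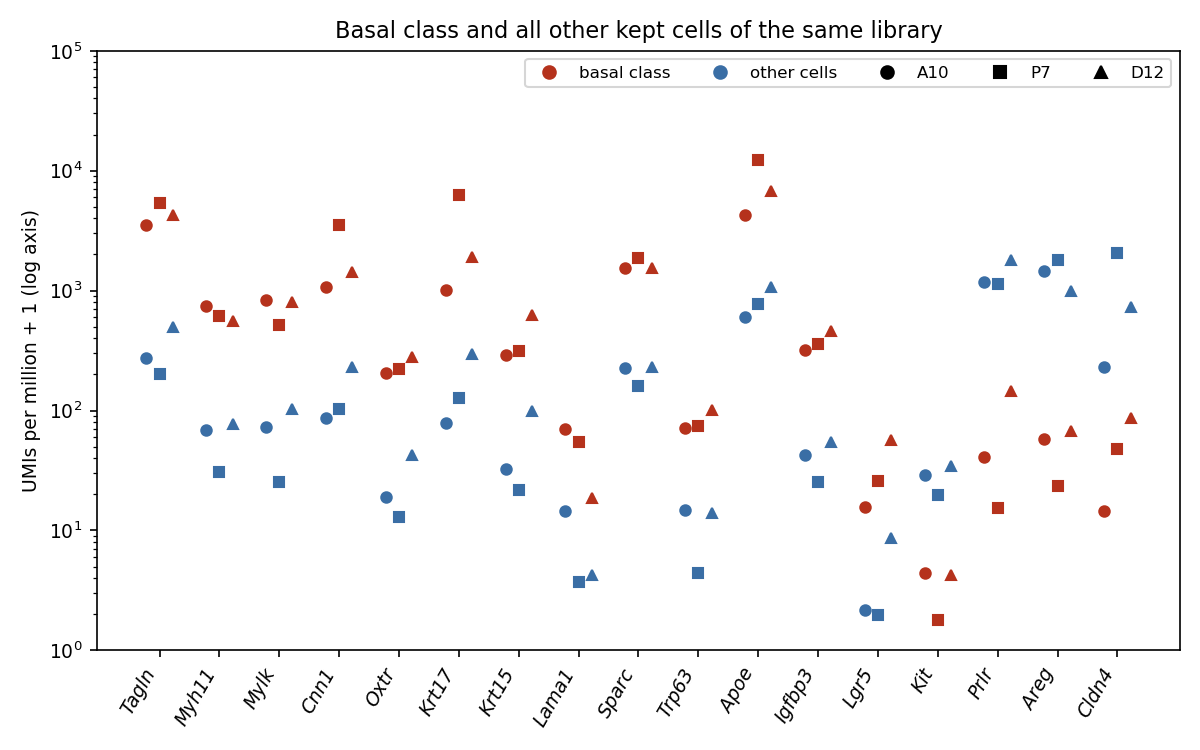
Level of 17 genes in members (red) and in all other kept cells of the same library (blue), in CPM plus 1 on a log axis, with a point per library (circle A10, square P7, triangle D12). Contractile, keratin, matrix and signalling genes sit higher in members in each library and the 4 luminal genes at the right sit lower. Among members, Krt17 ran from 1012 to 6275 and Prlr from 14.3 to 145.

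Keratins and adhesion genes were higher in 7 of 12 cases. Krt17, a keratin of basal and stressed epithelia, stood at 1012, 6275 and 1918 CPM in members against 78.1, 125 and 292 (log2 3.97 ± 1.48), and the P7 value lay far above the other two. Krt15, known from basal cells of the skin, stood at 289, 313 and 626 CPM against 31.7, 20.7 and 98.5. P-cadherin, Cdh3, was higher at 65.9, 31.8 and 60.6 CPM against 10.6, 1.24 and 8.77. Itga6, the laminin receptor chain often used to sort basal cells, did not reach 2-fold in each library, at 549, 249 and 154 CPM against 171, 47.4 and 86.1.

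Nearly the whole basement membrane list was higher, 14 of 15 genes. Sparc, a collagen-binding matrix protein, stood at 1537, 1854 and 1543 CPM against 227, 159 and 228 (log2 2.99 ± 0.44). The type IV collagen chains Col4a1 and Col4a2 varied more between libraries, at 489, 108 and 197 CPM for Col4a1, but stayed above the other cells at 99.9, 10.7 and 41.7. Lama1, the laminin chain of myoepithelium, stood at 69.0, 53.7 and 17.6 CPM against 13.4, 2.75 and 3.22. The exception was the laminin chain Lama5, at 28.9, 21.5 and 36.1 CPM in members against 44.3, 48.9 and 37.3.

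Among transcription factors, 5 of 11 genes were higher. Id4, an inhibitor of helix-loop-helix factors, stood at 274, 118 and 391 CPM against 50.4, 6.04 and 54.5 (log2 2.85 ± 0.58). Snai2, the zinc finger factor Slug, stood at 53.1, 24.3 and 48.2 CPM against 12.9, 1.37 and 7.94. Mef2c and the immediate early gene Egr2 were the others besides Trp63. Egr2 stood at 106, 382 and 124 CPM in members, highest in P7, where the dissociation genes were highest too, and their part in it was not tested.

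Secreted products were prominent, with 16 of 22 genes higher and Wnt4 lower. Apoe, the lipid carrier, stood at 4239, 12284 and 6781 CPM in members against 597, 778 and 1076 (log2 3.15 ± 0.72). Igfbp3, which binds insulin-like growth factors, stood at 318, 359 and 456 CPM against 41.6, 24.3 and 53.6, and the matricellular gene Postn at 390.2, 668 and 330.4 CPM against 31.1, 25.7 and 41.1. Wnt6 (64.7, 50.9 and 18.1 CPM) and Wnt10a (34.6, 83.5 and 33.4 CPM) were higher, whereas Wnt4, a progesterone target of luminal cells, stood at 18.0, 7.16 and 21.1 CPM against 172, 21.1 and 86.7. Nrg1, a ligand of ERBB receptors on luminal cells, was called higher, yet its level in members was 298 CPM in A10 and 24.7 and 16.4 CPM in P7 and D12. The ratio between A10 and D12 members is larger than the ratio between members and other cells in any of the libraries.

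Receptors and surface markers were higher in 6 of 13 cases, namely Egfr, Fzd7, Lgr5, Lgr6, Mme and Vim. Fzd7, a Wnt receptor, stood at 64.0, 51.3 and 49.9 CPM against 9.98, 2.33 and 10.2, and Mme (CD10), a surface peptidase of myoepithelium, at 75.3, 151 and 125 CPM against 11.7, 19.2 and 28.5. Lgr5, an R-spondin receptor known from stem cells of several epithelia, stood at 14.6, 24.7 and 55.4 CPM against 1.19, 0.961 and 7.64. It was seen in 166, 54 and 442 members. With cells thinned to 1500 UMIs, 2.36, 3.11 and 8.51% of members had an Lgr5 UMI, against 0.190, 0.167 and 0.967% of luminal keratin cells (unthinned 5.20, 4.62 and 20.9% against 0.724, 0.248 and 3.59%). Tspan8, another surface marker used to divide basal cells, was seen in fewer members than luminal cells, at 0.492, 2.99 and 5.05% against 7.68, 15.4 and 11.4% after thinning, and a UMI of both Lgr5 and Tspan8 occurred in 7, 2 and 56 members. Procr was rare in both, at 0.591, 1.38 and 0.240% of members against 0.424, 0.502 and 0.406% of luminal keratin cells, so the order differed between libraries.

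Luminal genes were low in members. All 8 mature luminal markers and 7 of 8 luminal progenitor markers were at least 2-fold lower in each library. Areg, the growth factor amphiregulin made by hormone-sensing cells, stood at 57.05, 22.7 and 66.9 CPM against 1455, 1782 and 989 (log2 -4.79 ± 1.13). The prolactin receptor Prlr stood at 40.1, 14.3 and 145 CPM against 1183, 1142 and 1799, and the progenitor factor Elf5 at 1.97, 2.39 and 4.07 CPM against 57.1, 140.5 and 46.9. Lcn2, counted among luminal progenitor markers, was the exception at 1404, 1586 and 1127 CPM against 2025, 1991 and 963.

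Markers of other cell types were low in adult members for some lists and not for others. The pericyte and smooth muscle list of 7 genes summed to 11.8, 7.95 and 15.6 CPM in members, with Kcnj8 at 0 in each library, and Notch3 was lower than in other cells at 2.96, 1.19 and 4.56 CPM against 27.0, 21.6 and 27.6. The endothelial list of 6 genes summed to 13.7, 16.7 and 12.6 CPM, and the immune list of 7 genes, Ptprc being 0 by the rule, to 4.09, 43.7 and 74.0 CPM, against 4.94, 13.7 and 10.2 CPM in other cells. Most of the immune sum in P7 and D12 was Cd74, at 2.96, 41.3 and 73.1 CPM. The fibroblast list of 7 genes summed to 235, 327 and 189 CPM against 293, 1047 and 160.1, mostly Dcn (207, 318 and 145 CPM), and of 6 that passed the filter none was called higher and Dpt was lower. None of the 12 dissociation genes differed 2-fold between members and other cells in each library, although their level differed among libraries.

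Within the class, Acta2 varied over a wide range. In single cells it ranged from 3080 CPM at the 10th percentile to 15184 at the 90th in A10, from 6539 to 30217 in P7 and from 3327 to 13951 in D12. To compare cells at equal depth, 3048, 869 and 2079 members with 1500 UMIs or more were thinned to that number. Acta2 then had a median of 12, 28 and 12 UMIs, with extremes of 0 and 60 in A10, 1 and 78 in P7 and 0 and 56 in D12. Its variance was 4.72, 6.82 and 3.83 times its mean, where counting alone gives about 1. In bins of 2 UMIs, the fullest bin of A10 began at 10 UMIs and held 367 cells. In D12 the bins from 8, 10 and 12 UMIs held 250, 227 and 273 cells, and the P7 histogram is broad and uneven.

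**Figure D2:**
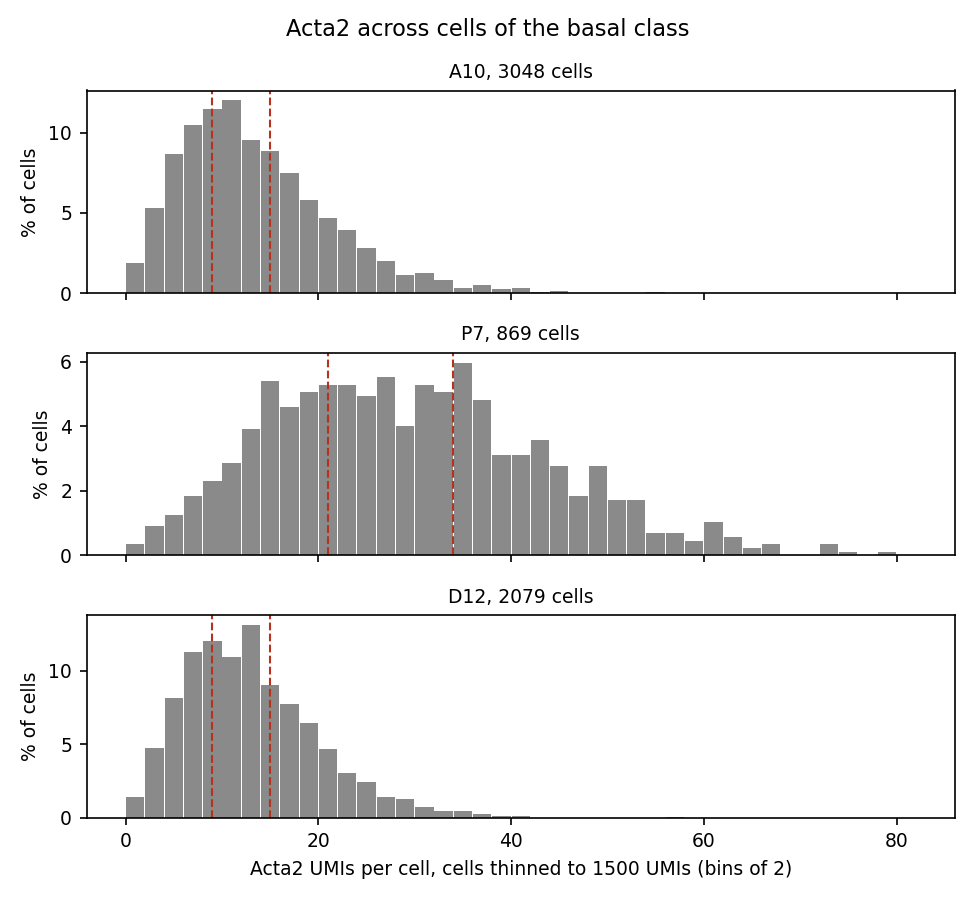
Share of members (vertical axis, %) by Acta2 UMIs per cell after thinning to 1500 UMIs (horizontal axis, bins of 2 UMIs), a panel per library, with dashed lines at the limits between tertiles. Medians are 12, 28 and 12 UMIs, and the dashed lines fall in the body of each distribution.

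Thinned members were ordered by Acta2 within each library and split into tertiles (low, middle and high), the outer ones of 1016, 289 and 693 cells. The limits were 9 and 15 UMIs in A10 and D12 and 21 and 34 in P7, and 31.0, 16.5 and 31.0% of cells lay within 1 UMI of a limit, so the tertiles are ranges and not types. Mean Acta2 was 5.40, 13.9 and 5.64 UMIs in the low tertile and 21.8, 44.7 and 20.4 in the high tertile. As Acta2 made the split, differences between tertiles are descriptions with no test. Of 5556 genes at 20 CPM or more, 42 were at least 1.5-fold higher in the high tertile in each library (0.756%) and 13 at least 1.5-fold lower (0.234%), and the median of all was 0.03 (log2).

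The contractile apparatus moved with Acta2 as a group. Of 17 contractile list genes besides Acta2, 13 were called higher and all 17 had a mean above 0, with a median log2 difference of 0.87. Actg2, the enteric smooth muscle actin, went from 81.7, 135 and 213 CPM in the low tertile to 231, 457 and 717 CPM in the high tertile (log2 1.63 ± 0.16, n = 3). Tpm2, a tropomyosin that lines actin filaments, went from 1307, 2857 and 1806 CPM to 3538, 7086 and 4098 CPM (1.31 ± 0.13), and the myosin light chain Myl9 from 749, 1749 and 853 CPM to 1592, 3697 and 1872 CPM (1.10 ± 0.03). In each library the tertiles did not cross for these 3 genes. Ppp1r14a, an inhibitor of myosin phosphatase, was low but ordered the same way, from 32.3, 11.6 and 29.9 CPM to 101.9, 33.3 and 102 CPM.

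Other genes high with Acta2 included structural and signalling products. Synm, an intermediate filament protein, went from 64.5, 65.2 and 41.5 CPM to 184, 143 and 97.5 CPM. Igfbp2, a binder of insulin-like growth factors, went from 267, 307 and 86.9 CPM to 652, 829.8 and 354 CPM (1.55 ± 0.37). Krt15, the keratin named above, was the only gene called among 12 keratin and adhesion genes, and Igfbp2 and Postn were the only ones among 20 secreted signals. Ckb, brain type creatine kinase, went from 112, 207 and 12.6 CPM to 239, 554 and 53.6 CPM, with D12 far below the others at both ends.

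**Figure D3:**
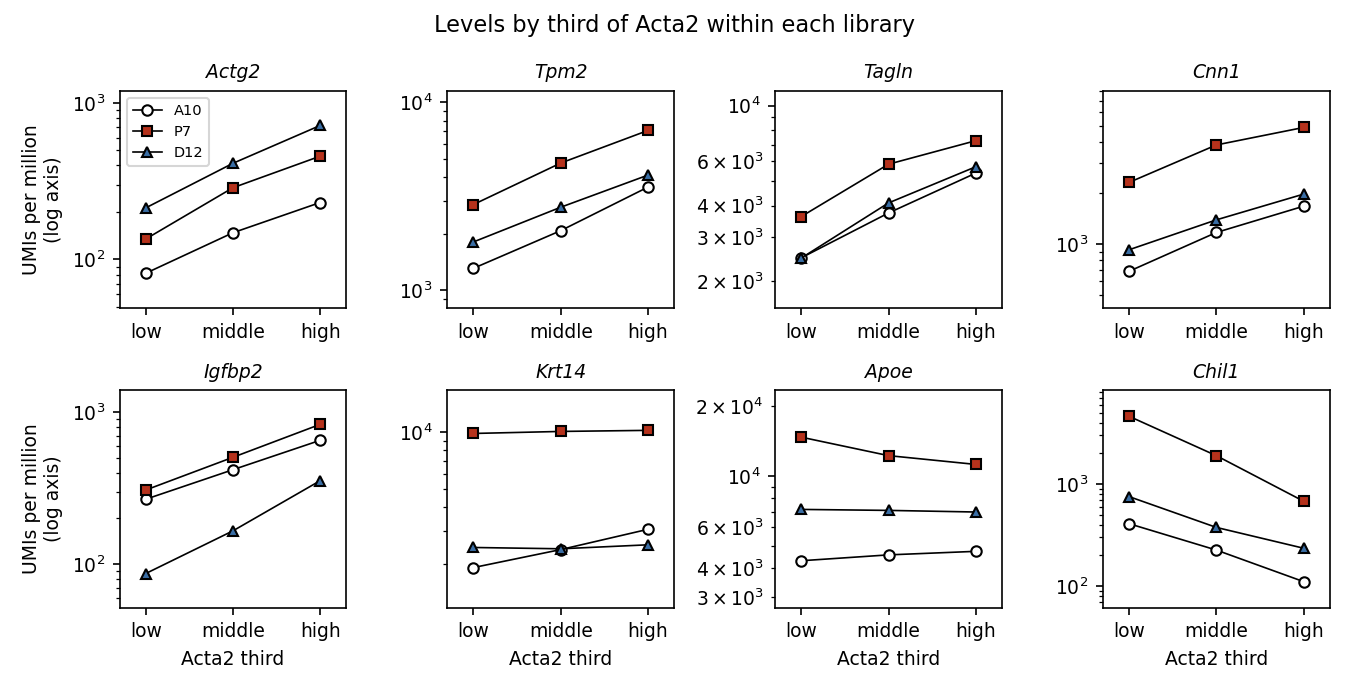
Level of 8 genes (vertical log axis, CPM with Acta2 left out of the total) in the low, middle and high Acta2 tertile of each library (circle A10, square P7, triangle D12). Actg2, Tpm2, Tagln, Cnn1 and Igfbp2 climb through the tertiles in each library, Chil1 descends, and Krt14 and Apoe differ more between libraries than between tertiles.

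Few genes were high where Acta2 was low. Of the 13 called, 3 were called again at 1000 UMIs, 3 at 2500 UMIs and 2 with 20 CPM added. Chil1, a secreted chitinase-like protein, went from 409, 4629 and 754 CPM in the low tertile to 110.5, 680.0 and 235 CPM in the high tertile (log2 -2.09 ± 0.59). The others were lower in level, such as the microfibril protein Mfap2, at 13.8, 41.9 and 38.6 CPM against 3.995, 19.0 and 14.6, the complement regulators and components Serping1 and C4b, and the metalloprotease Adamts1. Some markers of other cell types were also higher in the low tertile. The fibroblast collagen Col1a2 stood at 13.8, 4.66 and 22.2 CPM in the low tertile against 3.33, 0 and 3.90 CPM in the high tertile, and Dpt, a fibroblast matrix gene, at 7.24, 6.99 and 4.83 CPM against 0, 0 and 0.975 CPM. Both were below the 20 CPM filter. The whole fibroblast list, mostly Dcn, summed to 211, 317 and 208 CPM against 202, 288 and 170 CPM. Dcn, the only gene of that list past the filter, had no single order across libraries. Its mean log2 difference, high over low, was 0.14. Mature luminal markers summed to 175, 97.8 and 429 CPM against 136, 30.9 and 379 CPM, and endothelial markers to 23.7, 23.3 and 16.4 CPM against 18.0, 14.3 and 8.78 CPM. Other luminal lists had no single order: pan-luminal markers at 468, 955 and 987 CPM against 501, 758 and 992, and luminal progenitor markers at 1532, 1739 and 1616 CPM against 1799, 1691 and 1571. Krt8 and Krt18 together had 0.661, 2.32 and 1.59 UMIs per cell in the low tertile against 1.03, 2.75 and 1.65 in the high tertile. Immune markers (5.27, 86.2 and 48.3 CPM against 4.66, 33.3 and 86.8) and pericyte markers (19.8, 11.6 and 9.66 CPM against 7.32, 7.13 and 20.5) had no single order across the libraries. The part of such markers in the tertile differences was not tested.

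The basement membrane genes (0 of 15 called), contraction signalling genes (0 of 9) and basal transcription factors (0 of 6) were not called in either direction. As 0.756% of all genes were called higher and 0.234% lower, 0 calls in lists this short say little. The basement membrane list summed to 2934, 2703 and 2189 CPM in the low tertile against 3614, 2948 and 2719 CPM in the high tertile. Of its 15 genes, 8 were higher in each library and 1 lower, with a median log2 of 0.29 against 0.03 for all genes. Trp63 went from 67.8, 116 and 96.6 CPM to 63.9, 57.1 and 101.4 CPM, up in D12 and down in the others. Oxtr stood at 157, 205 and 269 CPM in the low tertile and 280.3, 235 and 275 CPM in the high tertile, so only A10 showed a wide gap.

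Depth and dissociation genes by tertile were as follows. Median UMIs before thinning were 3996, 3839.5 and 3757 from the low to the high tertile in A10, 2105, 2306 and 2314 in P7 and 3710.0, 4540.0 and 4974 in D12. The 12 dissociation genes summed to 9738, 10384 and 10379 CPM from the low to the high tertile in A10, 36233, 35067 and 31255 in P7 and 12431, 10990 and 9877 in D12, so the sum fell with Acta2 in P7 and D12, and their part in the differences was not tested. Over single cells, Pearson correlations were taken on log-transformed thinned UMIs. That of Acta2 with Tagln was 0.50 in A10 (3048 cells), 0.54 in P7 (869) and 0.54 in D12 (2079). That with Myh11 was 0.23, 0.22 and 0.25, whereas that with Krt14 was 0.24, 0.05 and 0.03. These cells share a library and a fixed total, and the values are descriptions. Acta2 and Krt14 are both genes of the rule, and low counts can lower a correlation, so no ranking of genes is drawn from them. Myh11 averaged 1.16, 0.885 and 0.841 UMIs per thinned cell, against 3.66, 14.7 and 3.68 for Krt14. Myl9, Cnn1 and Tpm2 lay between 0.35 and 0.58.

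Acta2 was among the most uneven genes of the class, and Slpi was the only 1 of 5192 genes with a higher variance-to-mean ratio in each library. Over these genes the median of the lowest variance-to-mean ratio was 0.995, and 42 genes exceeded 1.5 in each library. Slpi, a secreted protease inhibitor, led with ratios of 12.3, 11.9 and 7.08, and the tenth of cells richest in it held 56.3, 46.4 and 51.9% of its UMIs. For Chil1 that share was 77.8, 59.2 and 71.2%, and for Krt15 it was 76.6, 84.4 and 49.7%, against 22.6, 19.3 and 21.3% for Acta2, though counting alone raises this share in genes of low mean. Fos (8.25, 12.4 and 3.53), Junb and Jun, which respond to dissociation, were also among the 15 most variable genes. Krt17, Tagln, Apoe, Tpm2, Igfbp5 and Fst, the activin-binding follistatin, were among them too.

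The comparison with later stages asked how cells chosen by the same rule differ in pregnancy and lactation, and here the contrast is between libraries and can be tested. The paper's methods list samples that were processed together and name no pregnancy or lactation sample with an adult one. Stage and processing run thus cannot be told apart here, and the fit has no term for the run. The rule found 3407 and 5874 cells in H and G (day 12.5), 4585 and 1919 in F4 and B4 (day 18.5) and 775 and 455 in F11 and D6 (lactation). In F11 and D6, 10.3 and 9.23% of these cells passed on 1 basal keratin UMI with no luminal one. That share was 2.38, 0.428 and 0.189% in A10, P7 and D12 and 1.22 to 3.75% in pregnancy. UMIs of the chosen cells were summed by library and the rule's genes were removed. Then 13192 genes were fitted with edgeR's quasi-likelihood test on TMM-scaled counts. Of these, 61 rose (0.462%) and 61 fell (0.462%) at day 12.5 at an adjusted p below 0.05, 242 rose (1.83%) and 111 fell (0.841%) at day 18.5, and 652 rose (4.94%) and 245 fell (1.86%) in lactation, where scaling by library totals in place of TMM gave 484 and 559. All 3 contrasts use the same adult libraries, so their results are not independent of each other, and values are set side by side.

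The cells passing the rule in lactation held much RNA of other cell types' markers, which has to be read with every lactation result. Pericyte markers summed to 111 CPM in F11 and 635 in D6, endothelial markers to 169 and 1427, and immune markers to 359.99 and 888, against at most 15.6, 16.7 and 74.0 CPM in the adult libraries. Cells with 2 or more UMIs of these markers made up 8.52% of the cells in F11 and 41.5% in D6, against 1.28, 2.05 and 10.2% in A10, P7 and D12. The haemoglobin gene Hbb-bs, of red blood cells, stood at 451 and 6800.02 CPM in F11 and D6 and at 0 in the adult libraries. The 7 milk genes summed to 416122 CPM in F11 and 128012 in D6 within the chosen cells, and to 636646 and 614064 CPM in the other cells of those libraries. At day 18.5 pericyte markers summed to 38.2 and 118 CPM, and of 7 markers Rgs5, Kcnj8 and Abcc9 were called higher. Rgs5 was lost without B4 and Abcc9 without D12, F4 or B4. Without the cells bearing these markers Rgs5 was lost, and Kcnj8 and Abcc9 were below the filter. Fibroblast markers at day 18.5 summed to 911 and 802 CPM, against 189 to 327 in the adult libraries, with Dcn called higher. In lactation fibroblast markers summed to 203 and 461 CPM, with Col3a1 and Lum called higher. When the cells with 2 or more such UMIs were left out of each library, a choice made after seeing the data, 166, 401 and 350 genes were called at the 3 stages in place of 122, 353 and 897. Fewer cells of a type and less of its free RNA cannot be told apart in these sums.

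**Figure D4:**
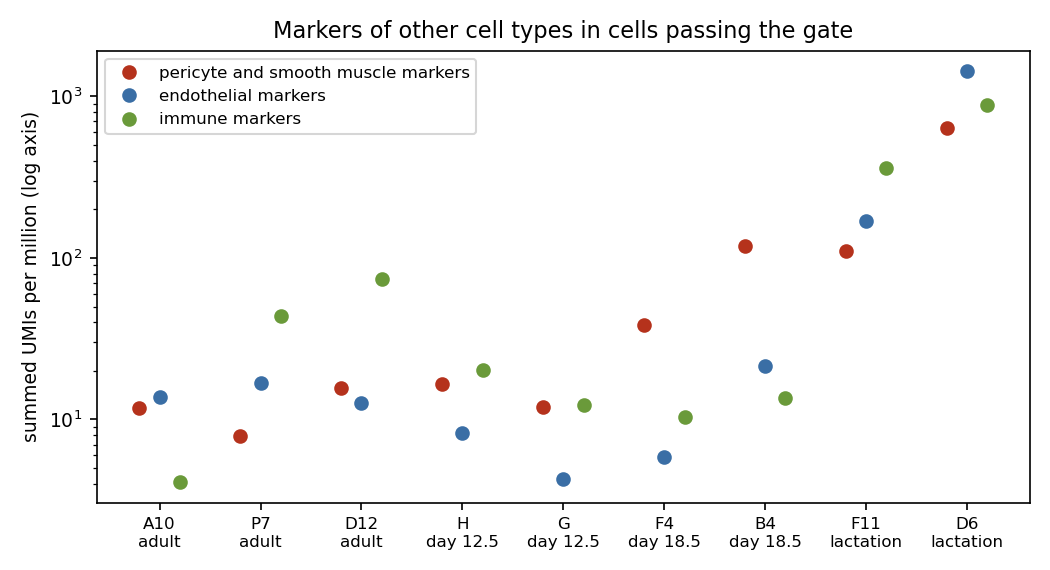
Summed level of pericyte (red), endothelial (blue) and immune (green) markers in cells passing the rule (vertical log axis, CPM), by library and stage. The lactation libraries F11 and D6 stand above the adult ones for each list, from 111 to 1427 against 4.09 to 74.0.

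A few contractile genes rose late in pregnancy. At day 12.5, 0 of 18 contractile genes were called by edgeR, 3 had an unadjusted p below 0.05 and DESeq2 called 3, and their median log2 change was 0.58, with that of all genes at -0.08. At day 18.5, 4 of 18 rose (Synm, Mylk, Ppp1r14a and Ppp1r12b) and the list median was 1.16 against -0.07 for all genes. In lactation 3 of 18 rose, Mylk being the one no longer called, with a median of 0.88 against -0.10. With the cells bearing markers of other types left out, the same 4 and 3 genes were called. In lactation that run still called the pericyte marker Rgs5 and the endothelial markers Kdr and Cdh5 higher, and Hbb-bs and Hbb-bt too. It thus did not clear such RNA, whose part in these contractile rises was not tested. Scaled by library totals, the lactation median of the list was 0.16 with that of all genes at -0.60, and Actn1, an actin cross-linker, fell, as it did by DESeq2, which called 8 rises and 1 fall. The lactation median was 0.41 without F11 and 1.19 without D6.

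Synm stood at 117, 86.2 and 67.8 CPM in adult A10, P7 and D12, 192 and 209 at day 12.5, 697 and 749 at day 18.5, and 358 and 503 in lactation. Both late stages lay above all adult libraries (log2 3.00 ± 0.41 SE, adjusted p = 0.00426 in edgeR's quasi-likelihood test at day 18.5, and 2.26 ± 0.40, adjusted p = 0.00559, in lactation). Mylk stood at 859, 414 and 741 CPM in adults, 2771 and 2819.8 at day 12.5, 5086 and 3853 at day 18.5, and 2885 and 1540.0 in lactation. Each later library was above each adult one, but only the day 18.5 contrast passed (2.73 ± 0.56, adjusted p = 0.0266, against 0.0954 and 0.0893). Ppp1r14a stood at 68.6, 13.5 and 56.6 CPM in adults and between 185 and 305 CPM in the 6 later libraries, and passed at day 18.5 and in lactation. Synm at day 18.5 and Ppp1r12b in lactation held in every alternative run. Where 1 of the 2 libraries of a stage is left out, the spread comes from the other groups and the lone library is assumed to vary like them, here and in what follows. Mylk did not pass at day 18.5 without D12 (adjusted p = 0.0724), H (0.0723), G (0.076), F4 (0.21) or B4 (0.122), and Ppp1r14a did not pass at that stage without any 1 of D12, H, G, F4, B4, F11 or D6 (0.0506 to 0.18), all by edgeR. Synm in lactation did not pass without D6 (edgeR adjusted p = 0.0603), nor Ppp1r14a without D12, F4, B4, F11 or D6 (0.0524 to 0.164), nor Ppp1r12b at day 18.5 without F4 (0.0805) or B4 (0.0562). Tagln did not pass at any stage, at 3689.6, 4362 and 3959 CPM in adults and 3101 to 7645 CPM later, and nor did Myh11 (adjusted p = 0.0696 at day 18.5 by the same test).

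**Figure D5:**
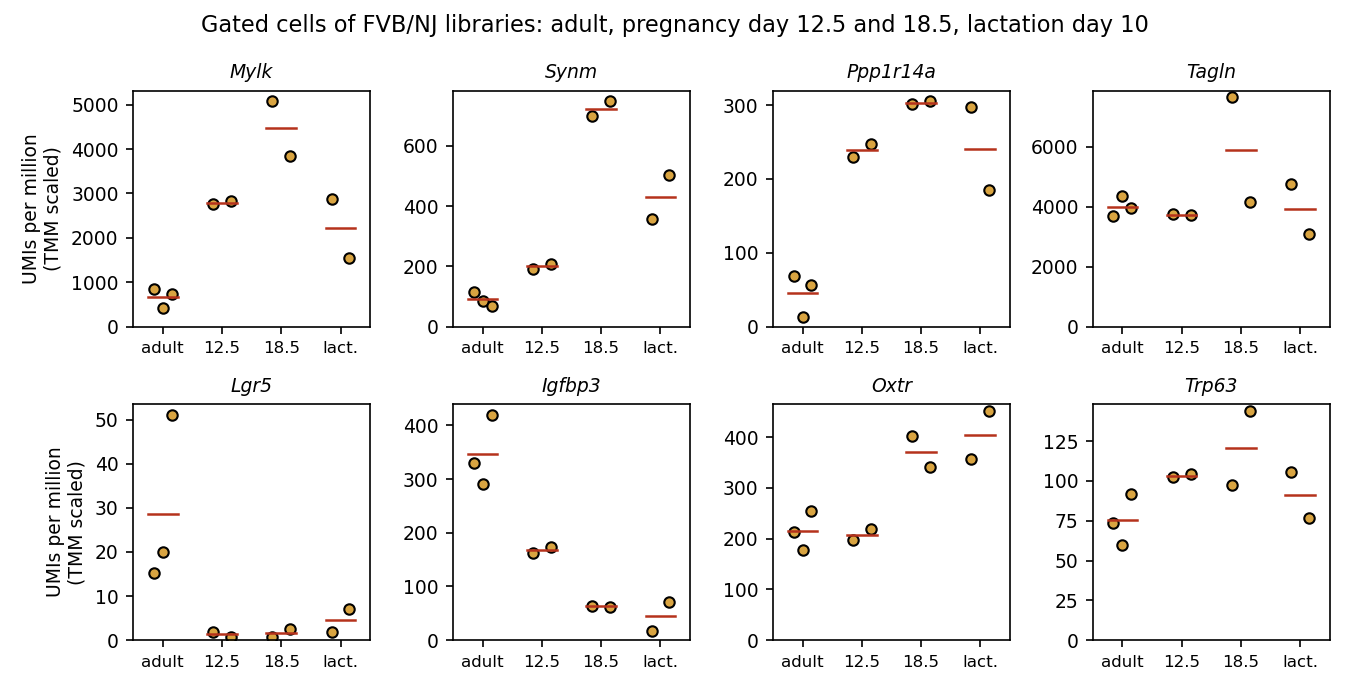
Level of 8 genes in cells passing the rule (vertical axis, CPM after TMM scaling), a point per library and a red line at the group mean, for adult (n = 3), day 12.5, day 18.5 and lactation (n = 2 each). Synm and Ppp1r14a are higher in each later library than in the adult ones, Lgr5 and Igfbp3 are lower, and Tagln, Oxtr and Trp63 passed no test.

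Of 13 contraction signalling genes, 0 were called at day 12.5, 1 rose at day 18.5 and 1 rose in lactation. Kcnmb1 rose at day 18.5, from 20.3, 13.5 and 26.7 CPM to 59.97 and 77.4 CPM (log2 1.75 ± 0.36, edgeR adjusted p = 0.0298, lost without H, G, F4 or B4). Rgs2, which damps G-protein signalling, rose in lactation, from 113, 38.9 and 47.6 CPM to 376 and 224 CPM, and was lost without D12, F11 or D6 (edgeR adjusted p = 0.0537 to 0.131). Oxtr stood at 214, 177 and 256 CPM in adults, 402 and 341 at day 18.5 and 357 and 452 in lactation, above the adult libraries but not past the test (edgeR adjusted p = 0.333 and 0.179). Of 14 keratin and adhesion genes, 0 were called at day 12.5, Cav1 rose at day 18.5 and in lactation, and Bcam fell in lactation. Cav1, the caveolin of membrane caveolae, stood at 722 and 703 CPM at day 18.5 and 568 and 642 CPM in lactation, from 179, 153 and 92.5 CPM. Cav1 was lost without F4 or B4 at day 18.5 and without D6 in lactation, and Bcam without F11 or D6.

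Of 19 receptors and surface markers, 1 fell at day 12.5 (Lgr5), 2 at day 18.5 (Lgr5 and Ngfr) and 1 in lactation (Lgr6), and none rose. Lgr5 stood at 15.1, 19.95 and 51.0 CPM in adults and 1.902 and 0.803 CPM at day 12.5 (log2 -4.46 ± 0.78, edgeR adjusted p = 0.0307), and 0.663 and 2.57 CPM at day 18.5 (adjusted p = 0.0186). Neither call held without some libraries, the first without D12 (0.0548), H (0.206), G (0.442), F4, B4, F11 or D6 and the second without F4 (0.22) or B4 (0.077). In lactation it stood at 1.87 and 7.06 CPM, below the adult libraries but not past the test (adjusted p = 0.0853). Igfbp3 stood at 330.0, 291 and 419.8 CPM in adults, fell to 63.5 and 62.2 CPM at day 18.5 and to 16.8 and 71.9 CPM in lactation, and did not pass at day 12.5 (163 and 173 CPM). The day 18.5 fall was lost without D12, H, G, F4 or B4 (edgeR adjusted p = 0.0797 to 0.349) and with the stricter keratin rule of a 3-fold balance (0.0578), and the lactation fall held with any 1 library left out. Areg, which was already low in adult members, fell at each stage, to 2.31 CPM at most, a call that held throughout at day 18.5 and was lost without H or G at day 12.5 and without F11 or D6 in lactation. Of 22 secreted signals, 0 were called at day 12.5, and at day 18.5 Wnt6 rose and Igfbp3 fell. The Wnt6 call was lost with any 1 library left out but A10. In lactation 7 fell, Igfbp5, Wnt10a, Bmp7, Dkk3, Igfbp3, Serpinf1 and Fst, and Igfbp6 rose from 11.8, 15.1 and 16.0 CPM to 204 and 92.4 CPM (log2 3.37 ± 0.44, edgeR adjusted p = 0.000796). Fst fell from 830.3, 248 and 275 CPM to 47.7 and 25.7 CPM, with the adult library A10 far above the other two, and did not pass without D6 (edgeR adjusted p = 0.123). Without the marker-bearing cells 4 of the 7 were called, Bmp7, Igfbp3, Serpinf1 and Fst, and Igfbp5, Wnt10a and Dkk3 were lost (0.153, 0.215 and 0.0854, edgeR adjusted p). Igfbp5, Wnt10a, Dkk3 and Serpinf1 were lost without F11 or D6 and Bmp7 without D6, by the same test, Wnt10a also without H or G, Dkk3 without H, and Igfbp5 without any 1 adult or pregnancy library but P7.

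The basal identity genes outside the rule mostly passed no test. Trp63 stood at 73.6, 59.9 and 92.1 CPM in adults and 77.0 to 144 CPM in the later libraries. Of 17 basement membrane genes, none was called at day 12.5 by edgeR (3 at an unadjusted p below 0.05, and 1 fall by DESeq2), Lama5 fell at day 18.5 and the nidogens Nid1 and Nid2 rose in lactation, Nid1 at 13.1 CPM in F11 and 64.2 in D6, where the endothelial list was highest. Lama5 was lost with any 1 library left out but P7 (edgeR adjusted p = 0.0535 to 0.435). Without the marker-bearing cells Nid1 was not called (log2 0.69, edgeR adjusted p = 0.551) and Nid2 was below the filter. Without D6 neither passed (0.693 and 0.242, edgeR adjusted p), and Nid1 was also lost without P7, D12, H, G, F4 or B4 and Nid2 without A10, F4, B4 or F11. Among 13 transcription factors, Id4 fell in lactation from 284, 95.9 and 359.9 CPM to 29.0 and 30.2 CPM (lost without F11 or D6, edgeR adjusted p = 0.118 and 0.154), and Meis2 rose from at most 0.512 CPM to 2.81 and 5.13 CPM. Meis2 was lost without D12, H, G, F4, B4, F11 or D6 (edgeR adjusted p = 0.0645 to 0.341) and was below the filter without the marker-bearing cells. Nrg1, uneven among adult libraries at 309, 19.95 and 15.1 CPM, lay between 198 and 442 CPM later and was not called.

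Of 7 milk genes, 2 rose at day 12.5 (Wap and Glycam1), 4 at day 18.5 (with Csn1s1 and Csn2) and 7 in lactation, and the other cells of these libraries hold them in bulk. The 5 largest rises of each stage also held the lipid synthesis genes Thrsp (day 12.5) and Olah (day 18.5), Ccl9 and Smr2 at day 12.5, Gldc and the pericyte gene Kcnj8 at day 18.5, and the haemoglobin genes Hbb-bs and Hbb-bt in lactation. Glycam1 stood at 0.0732, 0 and 0 CPM in adult A10, P7 and D12, 478 and 492 at day 12.5, 6356 and 2646 at day 18.5 and 18649.6 and 2616 in lactation, and Wap, whey acidic protein, reached 192461 and 28164 CPM in lactation. Since adult libraries were at or near 0, no fold is given (edgeR adjusted p = 0.00765 for Glycam1 at day 12.5). The chosen cells held 11619 and 10254 CPM of the 7 milk genes at day 12.5, beside 119784 and 109563 CPM in other cells, and free RNA from those cells was not separated here. Of 8 luminal progenitor markers, 5 rose in lactation (Elf5, Csn3, Ltf, Wfdc18 and Cd14), and Elf5 rose at day 18.5. Csn3 is also 1 of the 7 milk genes. The same 5 were called in lactation without the marker-bearing cells. Those cells were left out by pericyte, endothelial and immune markers, so that run could not remove luminal or milk RNA. In lactation Csn3, Ltf and Cd14 held in every alternative run. Elf5 was lost without F11 there, and without A10, D12 or F4 at day 18.5. Wfdc18 was lost without A10, F4, B4, F11 or D6. At day 12.5 the cell cycle genes Ube2c (40.3 and 34.7 CPM, from 4.32, 1.29 and 2.19) and Birc5 rose although Mki67 and Top2a were 0 by the rule, calls that were lost without D12, H or G, and that of Birc5 also without F4, B4, F11 or D6. Low genes also fell from adult levels to 0, such as the fibrinogen chain Fgb, from 6.51, 3.86 and 26.3 CPM to 0 in each pregnancy library. DESeq2 did not call Fgb (adjusted p = 0.225 at day 12.5 and 0.234 at day 18.5), and edgeR lost it at day 12.5 without H, G, F4, B4, F11 or D6 and at day 18.5 without F4 or B4. In lactation Etv4, an ETS factor, fell from 43.4, 26.7 and 31.7 CPM to 0 in both (edgeR adjusted p = 0.00053) and the Wnt inhibitor Nkd2 from 22.2, 17.4 and 21.2 CPM to 0.

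The cause was not tested, but fits of only the 2 groups compared, which have fewer degrees of freedom, lost several of these calls. By edgeR, they were Lgr5 (adjusted p = 0.12), Areg (0.103), Ube2c (0.0943), Birc5 (0.126), Fgb (0.133), Ccl9 and Smr2 at day 12.5. At day 18.5 they were Mylk (0.101), Ppp1r14a (0.0844), Kcnmb1, Cav1 (0.0781), Igfbp3 (0.0573) and Lama5 (0.129), by the same adjusted p of edgeR. In lactation they were Ppp1r14a (0.0747), Rgs2 (0.0685), Cav1 (0.0589), Igfbp3 (0.0585), Igfbp5 (0.235), Wnt10a (0.125), Dkk3 (0.132), Serpinf1 (0.0558) and Nid1 (0.0978), again by edgeR. Wnt6 at day 18.5 (0.125) and Bcam (0.0721) and Wfdc18 (0.0935) in lactation were lost too, by the same adjusted p of edgeR. Scaling by library totals lost Igfbp3 (edgeR adjusted p = 0.0772) and Lama5 (0.118) at day 18.5 and Cav1 (0.0655), Meis2 (0.0514), Nid1 (0.0753) and Nid2 (0.0514) in lactation. Of the other genes named, the calls of Wap, Thrsp, Ccl9 and Smr2 at day 12.5, of Ngfr, Dcn, Csn1s1, Csn2, Olah and Gldc at day 18.5 and of Lgr6, Col3a1 and Lum in lactation were each lost with at least 1 single library left out. Those of Wap, Ngfr, Dcn, Csn1s1, Csn2, Lgr6 and Col3a1 were also lost in the fits of only the 2 groups, that of Dcn with library totals (edgeR adjusted p = 0.055), and those of Lgr6, Col3a1 and Lum without the marker-bearing cells (edgeR adjusted p = 0.177, 0.0514 and 0.0514).

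Other adult libraries gave levels without a test, as each group has 1 library. By the paper's methods an FVB/N adult sample was processed together with the involution sample, and the adult C57BL/6 and SWISS samples together with each other. In the C57BL/6 library 2693 cells passed the rule, in SWISS 2057 and after involution 2586. Trp63 stood at 104, 63.9 and 72.8 CPM in these, beside 70.9 to 100.1 CPM in the adult FVB/NJ libraries. Oxtr stood at 259, 73.1 and 362 CPM beside 206 to 278 CPM, and Lgr5 at 67.2, 3.25 and 32.5 CPM beside 14.6 to 55.4 CPM. Igfbp3 stood at 276, 178 and 84.0 CPM, below the 318 to 456 CPM of adult FVB/NJ in each case. After involution Trp63 and Lgr5 lay within the adult FVB/NJ range, Oxtr lay above it and Igfbp3 below it, and Actg2, at 91.5 CPM, lay below the lowest adult FVB/NJ library at 158 CPM.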

How the data were processed

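Counts of UMIs per gene and cell were deposited by the authors as filtered 10x matrices on mm10, made with Cell Ranger (3.0.2 per the file headers of the adult FVB/NJ libraries, while the submitters' processing notes name 3.1.0 and edgeR). The members and gene lists were chosen with earlier results of these data known. Kept cells had 500 or more genes and under 20% mitochondrial UMIs. No doublet caller was run here, and per-library ceilings on genes and UMIs taken from the study's methods served as an alternative. Members' summed UMIs were expressed as CPM and compared with all other cells of the same library with 5 CPM added. No test was made of members against other cells or between tertiles, since measured values chose them. The stage tests used cells chosen by the same measured rule in each library. Acta2 tertiles used cells thinned to 1500 UMIs (seed 1), with Acta2 left out of the total. Stages were compared on library sums, without the rule's genes, with edgeR 4.0.16 (TMM, filterByExpr, quasi-likelihood test, Benjamini-Hochberg over all genes), 1 fit over 4 groups, common biological coefficient of variation 0.375. Replicates within the adult group differed beyond counting noise (chi-square per degree of freedom 78.1 to 208). The scripts were tested on simulated data. Named genes are those of the 18 lists, the 25 highest and 15 lowest for members, the 15 highest and lowest for tertiles, the 15 most variable, and per stage the 5 largest rises and falls with groups not overlapping. Tools were Python 3.11.15, numpy 2.4.6, scipy 1.17.1, pandas 2.3.3, R 4.3.3, limma 3.58.1 and DESeq2 1.42.0. The closing section names the alternatives tried.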

Additional observations from a re-analysis of the deposited data

How the results depend on the processing

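With 3 adult libraries and 2 per later stage, counts of calls moved widely. Adding 20 CPM gave 227 higher and 172 lower genes in members and 24 higher and 2 lower in the high Acta2 tertile. For the genes lower in that tertile, thinning to 2500 UMIs gave 7, adding 1 CPM 20 and no filter 26, in place of 13. Of the 13, 3 were called again at 2500 UMIs and 3 at 1000 UMIs, and of the 42 higher genes 22 and 25. Leaving out 1 library gave 561 to 723 higher and 471 to 636 lower in members, and 58 to 94 higher and 18 to 77 lower in the high tertile (92 and 77 without A10, 94 and 43 without D12). The fold is then asked of fewer libraries, so these counts can rise for that reason alone. Of the 530 higher and 448 lower in members, 527 or 528 and 438 to 446 were called each time. Of the 42 and 13 in tertiles, 39 to 42 and 9 to 13 were. At day 12.5, 18.5 and lactation, in place of 122, 353 and 897, DESeq2 called 598, 819 and 1367, no filter 924, 1121 and 1821, and fits of only the 2 groups 4, 134 and 403. Leaving out 1 library of the fit gave 1 to 375 at day 12.5 (375 without A10, 299 without P7, 29 without D12, 1 without H or G, 30 without F4, 29 without B4, 73 without F11, 77 without D6), 61 to 670 at day 18.5 (542 without A10, 670 without P7, 232 without D12, 61 without F4, 93 without B4, and 193 and 189 with H or G left out) and 324 to 1167 in lactation (324 without D6). Size factors of DESeq2 in edgeR gave 127, 369 and 907, the study's limits 126, 355 and 875 and the keratin rule 123, 309 and 825. Without the cells bearing markers of other types, lactation gave 350. Scaling by library totals turned the lactation split from 652 higher and 245 lower to 484 and 559, with the median of all genes at -0.60. Fits of fewer libraries or groups have fewer degrees of freedom, but the cause of these changes was not tested. For members, requiring basal keratins at 3 times the luminal ones gave 356 higher and 398 lower in place of 530 and 448, luminal keratin cells alone as the comparison 608 and 479, TMM 468 and 493, the study's limits 528 and 456, 4 or more UMIs of the rule's 3 genes 530 and 449, thinning 469 and 450, 1 CPM added 749 and 623 and no filter 537 and 455. For tertiles, outer quartiles in their place gave 60 higher and 17 lower (37 and 8 shared with the 42 and 13), the keratin rule 41 and 14 (30 and 6 shared) and no threshold on the rule's 3 genes 42 and 17. Of 30 named tertile genes 5 moved by less than the SD between libraries in every alternative (63 values moved further, 266 did not), and of 40 named member genes 18 (36 and 444). Among named genes, Usp33 in the Acta2 tertiles reversed at 2500 UMIs (0.0998), and without the marker-bearing cells Des (-0.37), Eng (-1.19) and Notch3 (-1.17) reversed in lactation, genes of the lists that chose the cells to leave out. Kcnj8 at day 18.5 and Kcnj8, Abcc9, Emcn, Cldn5, Cd52 and Tyrobp in lactation were below the filter there. Whether a call held in every alternative run was checked only for named genes, 15 at day 12.5, 28 at day 18.5 and 59 in lactation. Those that held were Glycam1 at day 12.5, Areg, Glycam1, Synm and Wap at day 18.5, and 18 genes in lactation. The 18 were Ppp1r12b, Igfbp6, Etv4, Nkd2, Cd14, Ltf, Csn1s2a, Csn1s2b, Csn2, Csn3, Glycam1, Lalba, Wap, Hbb-bs, Hbb-bt, Cdh5, Kdr and Rgs5. No paired analysis was possible because the groups share no replicate numbers. Median UMIs per chosen cell were lowest in F11 (1795), F4 (1939) and P7 (1943), where 869 of 1168 members reached 1500 UMIs, and chosen cells were fewest in D6 (455) and F11 (775).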
